A study of Drosophila melanogaster with 72 samples.

Results

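Hearts of time-restricted flies were compared with hearts of freely fed flies at 5 weeks of age, using all 8 heart libraries among the 72 RNA-seq libraries of a Drosophila melanogaster feeding study. The other libraries came from heads and from the periphery. Under time-restricted feeding (TRF), male flies of the Oregon R strain alternated between cornmeal molasses agar and a medium of agar and water. Under ad libitum feeding (ALF), male flies of the same strain and age had the cornmeal medium throughout. Each group holds 4 libraries, 1 each at Zeitgeber time (ZT) 00, 06, 12 and 18. All flies were kept at 25 °C and snap-frozen, and polyadenylated RNA was sequenced without strand information. The labels give neither the number of hearts per library nor the hours of the feeding window. Levels are the deposited FPKM values, a measure of fragments scaled by transcript length and by library depth. Each of 15240 genes is represented by its most abundant transcript in the 8 hearts, and 9742 genes that averaged at least 1 FPKM were tested. Differences are TRF minus ALF on the log2(FPKM + 1) scale, averaged over the 4 ZT pairs, with the standard error (SE) of limma. This scale understates the change of low genes. Each pair is 1 library against 1 library, so p-values measure only the spread between these libraries.

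The fly heart is a contractile tube along the dorsal abdomen, flanked by pericardial nephrocytes that filter the hemolymph. Its beat rests on the sarcomere, on ion channels and calcium pumps, and on ATP from mitochondrial respiration. Flies defend themselves with secreted antimicrobial peptides, whose genes are switched on by the Imd and Toll pathways through NF-kappaB factors such as Relish. Chaperones such as the TRiC ring, which folds newly made actin and tubulin, and the chaperones of the endoplasmic reticulum keep proteins folded.

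Depth moved with feeding. Read totals recovered from the FPKM values, in mega-reads (M), were 7.78, 13.2, 19.8 and 15.3 M in TRF hearts at ZT00, ZT06, ZT12 and ZT18, against 15.2, 23.7, 22.2 and 22.9 M in ALF hearts at the same times. The TRF library was the shallower one in 4 of 4 pairs (mean 14.0 ± 5.0 M under TRF and 21.0 ± 3.91 M under ALF, SD, n = 4 each, exact two-sided permutation p = 0.0857, where 0.0286 is the smallest possible). The part of depth in the differences was not tested, beyond the fit on recovered reads named with the counts of calls.

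The tissue label was checked against marker genes. Hand, a transcription factor of heart and pericardial cells, ranged over 879 to 1779 FPKM in TRF hearts and 721 to 982 FPKM in ALF hearts. Of the 13 cardiac transcription factor genes, 12 averaged at least 1 FPKM. Some were close to that level, such as mid at 0.502 to 1.644 FPKM in TRF hearts and 0.914 to 2.683 FPKM in ALF hearts. The matrix gene prc, also a planned heart marker, was near 0. It had 0.014 to 0.186 FPKM in TRF hearts and 0.114 to 0.357 FPKM in ALF hearts. Genes of the flight muscle were near 0, with Act88F at 0.698 to 1.77 FPKM in TRF hearts and 1.07 to 1.303 FPKM in ALF hearts. Pericardial nephrocyte genes summed to 1085, 759, 823 and 835 FPKM in TRF hearts, against 546, 831, 455 and 588 FPKM in ALF hearts. They were higher under TRF in the pairs of ZT00, ZT12 and ZT18, and lower at ZT06. In bulk RNA, fewer cells of a type and less RNA per cell cannot be told apart.

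Some libraries carried transcripts of neighbouring organs. Renal tubule markers summed to 0.838, 0.674, 135 and 3.72 FPKM in TRF hearts, against 178, 0.779, 0.879 and 1.57 FPKM in ALF hearts. They stood out in TRF at ZT12 and in ALF at ZT00 and were near 0 in the other 6 libraries. Their defining gene Uro, the urate oxidase of the Malpighian tubules, had 0.511, 0.423, 101 and 1.35 FPKM in TRF hearts, against 162, 0.469, 0.322 and 0.763 FPKM in ALF hearts. The same pair of libraries held the highest sums of gut proteases, 99.2 FPKM in TRF at ZT12 and 115 FPKM in ALF at ZT00. Accessory gland genes were highest in TRF at ZT12 (264 FPKM), and testis genes in ALF at ZT18 (798 FPKM). Cyp4g1, a cytochrome P450 known from oenocytes and named after its values were seen, had 7525, 38151, 29743 and 40540.5 FPKM in TRF hearts, against 18228, 30261, 43271 and 33338 FPKM in ALF hearts. Its level was lowest in TRF at ZT00. The first principal component, with 33.6% of the variance, set ALF at ZT00 (-50.9) and ALF at ZT18 (46.4) at its ends rather than separating TRF from ALF.

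**Figure D1:**
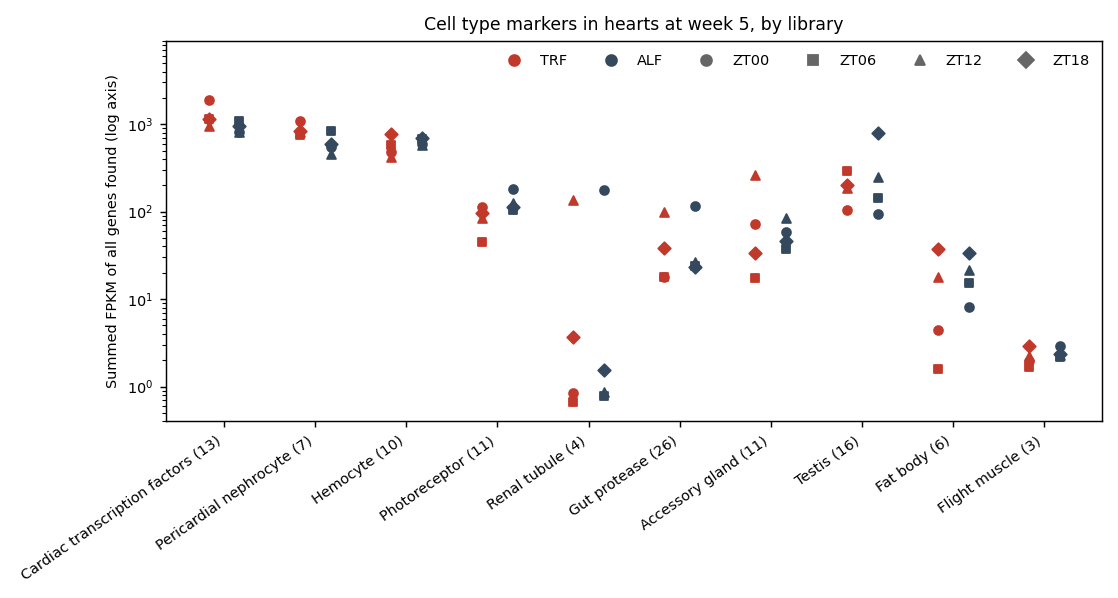
Summed FPKM (log axis) of marker genes of each cell type in the 8 heart libraries at week 5, with TRF at the left and ALF at the right of each column pair and symbols for ZT; the number of genes found stands in brackets. Renal tubule markers were high in TRF at ZT12 (135 FPKM) and ALF at ZT00 (178 FPKM), and flight muscle markers stayed at 2.88 FPKM or less in all 8 libraries.

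No gene passed an adjusted p of 0.05 in limma's test of TRF against ALF (0 of 9742 genes, 0.0%, Benjamini-Hochberg adjustment, smallest adjusted p = 0.710). Without adjustment 634 genes (6.51%) had p under 0.05. A fit of limma-voom on recovered reads also called 0 genes and had 406 higher and 492 lower genes at an unadjusted p under 0.05. All differences named hereafter are therefore values that did not pass, and direction is counted over the 4 ZT pairs. Over all genes, 7.83% were higher and 8.37% lower in 4 of 4 pairs, and the counts of each list are to be read beside these shares. Over all genes tested, the median difference was -0.05, with 41.9% of genes above 0 and 58.1% below. The pairs were unequal in size. At least 2-fold lower genes made up 7.9% in the ZT00 pair and 8.43% in the ZT18 pair, against 1.87% at ZT06 and 2.66% at ZT12. At least 2-fold higher genes made up 1.9%, 3.19%, 3.48% and 1.31% in the pairs of ZT00, ZT06, ZT12 and ZT18.

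Only 2 genes (0.0205%) were at least 2-fold higher under TRF in all 4 pairs, the antimicrobial peptide gene DptB and its neighbour CG43109. None (0.0%) was at least 2-fold lower in all 4 pairs. A further step down, 7 genes (0.0719%) were at least 2-fold higher in 3 or more pairs and higher in every pair. They were AttC, CG43109, CG43236, CecA1, Dpt, DptB and edin, and 5 of them, all but CG43109 and CG43236, belong to the list of antimicrobial peptide genes. The 5 genes (0.0513%) with the same pattern downwards were CG18371, CG3088, CG7768, Drsl4 and mir-1003.

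Antimicrobial peptide genes were the list that stood highest under TRF. Of 26 tested members, 21 lay above 0 and 5 below, and the median difference was 1.37, against -0.05 for all genes. Members higher in 4 of 4 pairs numbered 11, beside 7.83% of all genes. At an unadjusted p under 0.05, 13 members were higher (3.62% of all genes) and 1 was lower (2.88% of all genes). No member passed after adjustment. The median by pair was -0.12, 2.07, 1.82 and 0.81 at ZT00, ZT06, ZT12 and ZT18. Summed levels were 16140, 34400, 16900 and 8924 FPKM in TRF hearts, against 12960, 7909, 6089 and 5021 FPKM in ALF hearts. Each TRF library was higher than its ALF partner, but ALF at ZT00 exceeded TRF at ZT18.

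The diptericins act against Gram-negative bacteria downstream of Imd. DptB (chromosome 2R of dm3, 14754895 to 14755400, plus strand) had 2614, 5649, 2052 and 1279.8 FPKM in TRF hearts, against 1198, 1126, 587 and 284 FPKM in ALF hearts, always in the order ZT00, ZT06, ZT12 and ZT18. Every TRF library lay above every ALF library, as for 1.66% of all genes. Its difference was 1.856 (SE 0.22), and by pair it was 1.12, 2.33, 1.803 and 2.17. CG43109, read from the opposite strand with 48 bases shared with DptB, had 262, 529.9, 210.3 and 112 FPKM in TRF hearts, against 124, 109, 70.5 and 33.3 FPKM in ALF hearts. TRF at ZT06 was again highest and ALF at ZT18 lowest, and the difference was 1.66 (SE 0.21). Without strand information, reads of this pair cannot be told apart over the shared bases. Dpt, the other diptericin, had 2077, 5292, 2127 and 1174 FPKM in TRF hearts, against 1295, 893, 323 and 119 FPKM in ALF hearts. It was higher under TRF in every pair, with a difference of 2.31 (SE 0.44), and the groups overlapped because ALF at ZT00 exceeded TRF at ZT18.

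Attacins and cecropins also act mainly on Gram-negative bacteria. AttC had 1850.0, 2877, 1108 and 662 FPKM in TRF hearts, against 1032, 428, 206 and 181 FPKM in ALF hearts. The ALF level at ZT00 was well above the other ALF levels and overlapped the TRF range, and the difference was 1.97 (SE 0.33). AttA and AttB are near-identical copies that can share reads. AttA had 2229, 2785, 1319 and 446 FPKM in TRF hearts, against 1134, 207, 148 and 267 FPKM in ALF hearts, with a difference of 2.15 (SE 0.58). AttB had 1191, 1169.9, 988 and 319 FPKM in TRF hearts, against 796, 213, 165 and 308 FPKM in ALF hearts, with a difference of 1.41 (SE 0.49). In both, the gap was widest at ZT06 and ZT12, and it nearly closed for AttB at ZT18. AttD was a low member, at 7.804 to 174 FPKM in TRF hearts and 2.69 to 44.7 FPKM in ALF hearts, and its levels at ZT00 were almost equal. CecA1 had 701, 746, 965 and 134 FPKM in TRF hearts, against 276, 116, 629 and 60.5 FPKM in ALF hearts. TRF at ZT18 was far below the other TRF libraries, yet still above its ALF partner, and the difference was 1.44 (SE 0.34). CecA2 had a difference of 1.46 (SE 0.34) and CecB one of 1.43 (SE 0.44), both higher in 4 of 4 pairs.

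Drosocin and Metchnikowin, a pair of short peptides, were high in TRF hearts except at ZT00. Dro had 472, 3945, 1010.2 and 582 FPKM in TRF hearts, against 912, 352, 50.4 and 34.1 FPKM in ALF hearts, and its difference of 2.72 (SE 0.94) was the widest of the list. The ZT00 pair ran the other way. Mtk had 708, 3699, 917 and 769 FPKM in TRF hearts, against 810.0, 385, 167 and 85.4 FPKM in ALF hearts, with the same reversal at ZT00 and a difference of 2.17 (SE 0.62). CG43236, which RefSeq lists as the Metchnikowin-like gene Mtkl, had 195, 221, 147 and 101 FPKM in TRF hearts, against 91.9, 98.2, 69.3 and 67.4 FPKM in ALF hearts. It differed by 0.97 (SE 0.13) and its TRF and ALF levels did not overlap. The gene edin, an infection-induced secreted peptide, had 172, 1196, 349 and 123 FPKM in TRF hearts, against 140.1, 303, 28.9 and 16.9 FPKM in ALF hearts. It was higher in 4 of 4 pairs, by 2.15 (SE 0.53), although TRF at ZT18 lay below ALF at ZT00 and ZT06.

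The remaining members were mixed. Drs, the antifungal peptide Drosomycin, had 175, 997, 145 and 128 FPKM in TRF hearts, against 229, 138, 429 and 65.2 FPKM in ALF hearts. It was higher under TRF at ZT06 and ZT18 and lower at ZT00 and ZT12, and its difference of 0.46 (SE 0.72) was smaller than its SE. Drsl4, a Drosomycin-like gene, had 13.7, 42.99, 40.7 and 114 FPKM in TRF hearts, against 94.4, 117, 588 and 213 FPKM in ALF hearts. It was lower under TRF in 4 of 4 pairs, by -2.21 (SE 0.50), and was the 1 member of the list lower in every pair, beside 8.37% of all genes. Among immune-induced molecules, IM18 was higher in 3 of 4 pairs, by 1.33 (SE 0.36), and IM23 in 4 of 4 pairs, by 1.52 (SE 0.61). IM4, one of the most abundant members, had 685, 934, 1177 and 895 FPKM in TRF hearts, against 949, 1033, 876 and 982 FPKM in ALF hearts. Its levels overlapped throughout, with a difference of -0.08 (SE 0.16).

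**Figure D2:**
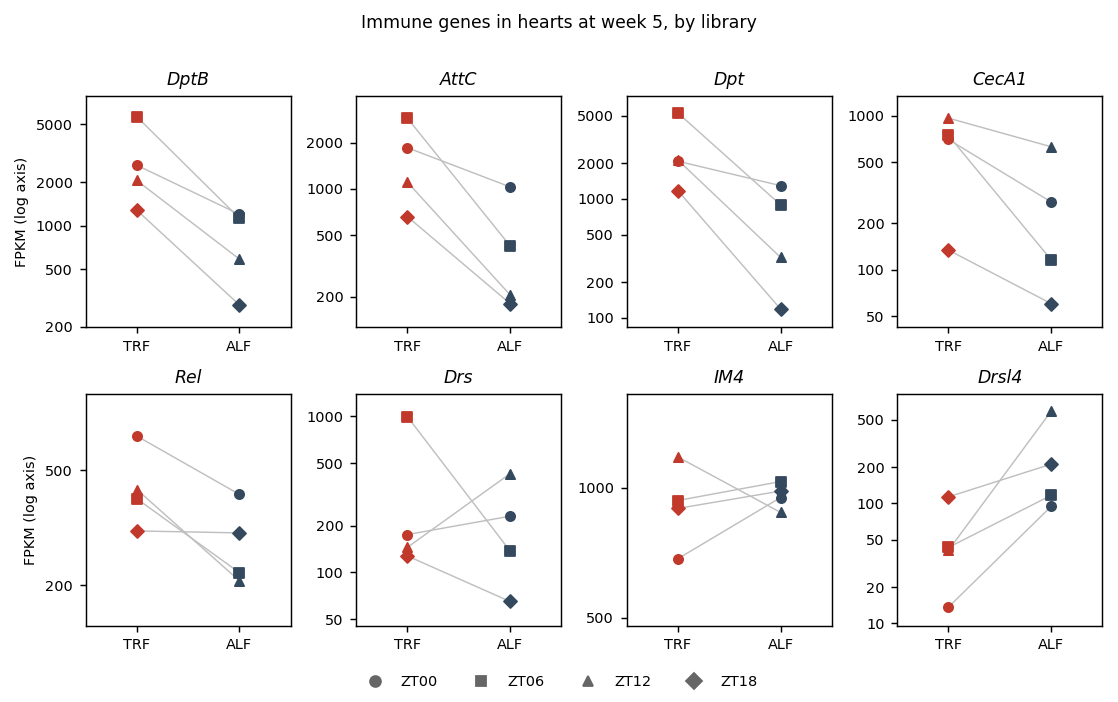
FPKM (log axis) of 8 immune genes in each heart library, TRF at the left and ALF at the right, with grey lines joining the libraries of 1 ZT. DptB, AttC, Dpt, CecA1 and Rel were higher under TRF in 4 of 4 pairs, Drs and IM4 in 2 and 1 of 4 pairs, and Drsl4 in none.

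Recognition and signalling genes of the immune pathways leaned the same way with smaller sizes. Of 23 tested members, 20 lay above 0 (41.9% of all genes) and 11 were higher in 4 of 4 pairs (7.83% of all genes), and none was lower in 4 of 4. The median difference was 0.23, and 8 members were higher at an unadjusted p under 0.05 (3.62% of all genes). Rel, the NF-kappaB factor of the Imd pathway, had 656, 398, 429 and 308 FPKM in TRF hearts, against 412, 221, 207 and 304 FPKM in ALF hearts. Its ZT18 levels were almost equal, and its difference was 0.65 (SE 0.19). Rel shares 3018 bases with Nmdmc on the same strand. The gene pirk, a brake on Imd signalling, had 401, 269, 249 and 200.4 FPKM in TRF hearts, against 204, 180.1, 156 and 196 FPKM in ALF hearts. All 4 pairs were higher under TRF, by 0.56 (SE 0.17), and ALF at ZT00 reached into the TRF range. The kinase subunit gene key differed by 0.36 (SE 0.09). Among peptidoglycan recognition proteins, the amidase PGRP-SB1 had 856, 1096, 529 and 323 FPKM in TRF hearts, against 467, 241, 161 and 234 FPKM in ALF hearts and a difference of 1.31 (SE 0.31). PGRP-SC2, a second amidase, had 46.5, 276, 78.4 and 38.5 FPKM in TRF hearts, against 53.2, 33.2, 8.06 and 10.6 FPKM in ALF hearts. It was slightly lower under TRF at ZT00 and higher in the other 3 pairs, by 1.93 (SE 0.59) on average. The sensor PGRP-SD differed by 0.68 (SE 0.22) and the inhibitory receptor PGRP-LF by 0.41 (SE 0.12). CG5118, listed by RefSeq as Charon, a regulator that acts with Relish, had 67.4, 25.95, 32.8 and 23.2 FPKM in TRF hearts, against 29.995, 14.7, 13.9 and 16.2 FPKM in ALF hearts. Each pair was higher under TRF, and the difference was 0.90 (SE 0.15).

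Sums of hemocyte genes were 479, 578, 424 and 767 FPKM in TRF hearts, against 589.7, 686, 582 and 694 FPKM in ALF hearts, with 5 of 9 tested members above 0, 4 below and a median difference of 0.00. Differences ran from -0.59 to 0.11, and 3 members were lower and 0 higher at an unadjusted p under 0.05 (2.88% and 3.62% of all genes). The fat body list, mostly larval serum protein genes, summed to 1.599 to 37.6 FPKM in TRF hearts and 8.11 to 33.6 FPKM in ALF hearts. Its member Lsp1alpha was at or below 0.615 FPKM. Only 2 of its 6 genes were tested, so these low sums do not measure the fat body content of the hearts. The part of either cell type in the immune values was not tested.

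Other genes among the 12 with the smallest unadjusted p and a higher level in 4 of 4 pairs included enzymes and genes of unknown role. CG42807 had 351, 319.6, 164 and 178 FPKM in TRF hearts, against 201, 138, 95.9 and 97.8 FPKM in ALF hearts. The ALF level at ZT00 lay inside the TRF range, and the difference was 0.91 (SE 0.12). Sp212, a serine protease gene, had 61.5, 26.1, 31.9 and 29.3 FPKM in TRF hearts, against 25.1, 15.5, 17.1 and 18.9 FPKM in ALF hearts. Its groups did not overlap, and it differed by 0.86 (SE 0.14). CG10126 also had non-overlapping groups, at 160.0 to 198 FPKM in TRF hearts and 109 to 140.3 FPKM in ALF hearts, with a difference of 0.54 (SE 0.09). CG33926, named Srg3 in RefSeq, differed by 0.99 (SE 0.17) with 57.6 to 119 FPKM in TRF hearts and 30.7 to 67.8 FPKM in ALF hearts. CG4783 differed by 0.86 (SE 0.12), and its levels varied more between times than between feeding groups, from 1.45 FPKM in ALF at ZT06 to 34.7 FPKM in TRF at ZT12. CG17264 differed by 0.51 (SE 0.09). Pal2, an enzyme of peptide amidation, had 8.74 to 17.8 FPKM in TRF hearts and 5.78 to 9.01 FPKM in ALF hearts and differed by 0.67 (SE 0.13).

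The 12 genes with the smallest unadjusted p among those lower in 4 of 4 pairs were mostly low in level. CG7768 had 0.722, 1.71, 2.69 and 4.04 FPKM in TRF hearts, against 3.597, 3.38, 6.77 and 13.2 FPKM in ALF hearts. Both groups were highest at ZT18 and the TRF level was lower each time, by -1.17 (SE 0.17); the gene shares 770 bases with nuf on the same strand. CG8329, a serine protease gene, had 3.12, 1.17, 2.83 and 2.02 FPKM in TRF hearts, against 6.298, 4.18, 5.26 and 10.4 FPKM in ALF hearts. The groups did not overlap, as for 1.53% of all genes on the lower side, and the difference was -1.18 (SE 0.23). The gene obst-B, of a family of chitin-binding proteins, was at 0.226 to 1.27 FPKM in TRF hearts and 1.56 to 2.78 FPKM in ALF hearts, without overlap, and differed by -0.92 (SE 0.19). CG8519 differed by -0.58 (SE 0.12), also without overlap. CG1942, the diacylglycerol acyltransferase Dgat2 in RefSeq, had 3.06, 6.701, 15.3 and 12.6 FPKM in TRF hearts, against 5.16, 12.6, 34.2 and 16.98 FPKM in ALF hearts. ZT12 was the highest time in both groups, and the difference was -0.73 (SE 0.14). CR41544 and CR40640, 2 overlapping noncoding annotations that share reads, differed by -0.62 (SE 0.10) and -0.61 (SE 0.10). The mitochondrial genes mRpL23, mRpL41, Roe1 and CG7441 and the photoreceptor gene Arr1 made up the rest and are given with their groups.

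Sarcomere genes were lower under TRF, mostly at ZT06 and ZT12. Of 11 thick filament and titin genes, 10 lay below 0 and 4 were lower in 4 of 4 pairs, with a median difference of -0.40. Of 12 thin filament genes, 11 lay below 0 and 5 were lower in 4 of 4 pairs, with a median of -0.39. Unadjusted p was under 0.05 for 3 lower thick filament genes and 4 lower thin filament genes (2.88% of all genes). It was so for 1 higher gene among both lists (3.62% of all genes). The medians by pair were -0.25, -0.47, -0.93 and -0.08 for thick filament genes and 0.01, -0.45, -0.99 and -0.24 for thin filament genes.

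Mhc, the muscle myosin heavy chain, had 243, 116, 184 and 254 FPKM in TRF hearts, against 318, 242, 445 and 298 FPKM in ALF hearts. TRF levels were lower in 4 of 4 pairs, by -0.74 (SE 0.21), and the groups overlapped through ALF at ZT06. Prm, which encodes paramyosin of the thick filament core, had 81.2, 47.4, 74.6 and 89.9 FPKM in TRF hearts, against 137, 93.7, 158 and 105 FPKM in ALF hearts. No TRF library reached an ALF library, and the difference was -0.75 (SE 0.17). The titin relatives sls and bt differed by -0.48 (SE 0.24) and -0.47 (SE 0.22), each lower in 3 of 4 pairs and higher at ZT18, and zormin by -0.45 (SE 0.15). Mlc-c, a light chain of non-muscle myosin, was the member above 0. It had 142, 116, 123 and 119 FPKM in TRF hearts, against 120.1, 103, 100.2 and 95.99 FPKM in ALF hearts, with a difference of 0.25 (SE 0.09).

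TpnC73F, a troponin C that senses calcium, had 72.7, 75.9, 56.5 and 69.2 FPKM in TRF hearts, against 181, 92.3, 158 and 84.9 FPKM in ALF hearts. The groups did not overlap, and the pairs of ZT00 and ZT12 carried most of the difference of -0.84 (SE 0.26). Act57B, a muscle actin, had 1643, 763, 986 and 1245 FPKM in TRF hearts, against 1676, 1424, 2473 and 1493 FPKM in ALF hearts. The ZT00 pair was nearly equal, and the ZT12 pair was furthest apart. Its difference was -0.63 (SE 0.24). Act87E, another muscle actin, differed by -0.62 (SE 0.22) at 61.96 to 86.9 FPKM in TRF hearts and 90.5 to 164 FPKM in ALF hearts, without overlap. Tm2, a tropomyosin, was lower in 4 of 4 pairs, by -0.49 (SE 0.18).

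Genes of the Z-disc and of muscle attachment were mixed. Of 14 members 6 lay above 0 and 8 below, with a median of -0.18, and the median changed to 0.04 when the libraries with renal tubule transcripts were left out and ZT was not modelled. Actn, the alpha-actinin that crosslinks thin filaments, had 32.4, 24.2, 26.7 and 34.7 FPKM in TRF hearts, against 49.7, 35.1, 57.3 and 39.9 FPKM in ALF hearts. All TRF levels were below all ALF levels, and the difference was -0.60 (SE 0.16). Mlp60A, a muscle LIM protein, had 219, 156, 232 and 272 FPKM in TRF hearts, against 324, 281, 656 and 310.0 FPKM in ALF hearts. ALF at ZT12 was far above the other ALF libraries, the groups did not overlap, and the difference was -0.77 (SE 0.23). The capping protein that ends actin filaments went the other way. Its beta subunit cpb had 62.4, 38.7, 45.1 and 42.2 FPKM in TRF hearts, against 35.7, 36.95, 29.04 and 30.02 FPKM in ALF hearts, each TRF library above every ALF library, with a difference of 0.49 (SE 0.14). Its alpha subunit cpa, named after its values were seen, had 48.2 to 69.5 FPKM in TRF hearts and 40.2 to 45.95 FPKM in ALF hearts, again without overlap, and differed by 0.34 (SE 0.11). For the integrin gene scb, 3 of 4 pairs were higher under TRF and the difference was 0.58 (SE 0.23).

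**Figure D3:**
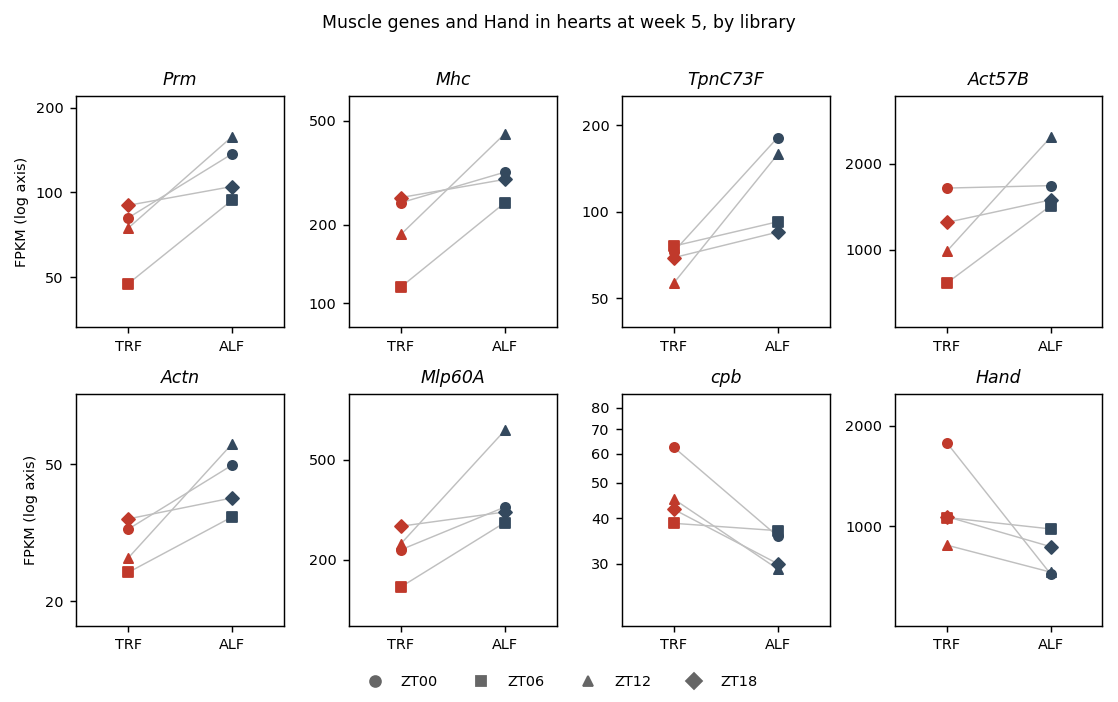
FPKM (log axis) of 7 muscle genes and Hand in each heart library, TRF at the left and ALF at the right, with grey lines joining the libraries of 1 ZT. Prm, Mhc, TpnC73F, Act57B, Actn and Mlp60A were lower under TRF in 4 of 4 pairs, and cpb and Hand were higher in 4 of 4 pairs.

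Cardiac transcription factors did not move together. Of 12 tested members 3 lay above 0 and 9 below, with a median of -0.11, and 0 had an unadjusted p under 0.05 in either direction. Hand was the 1 member higher in 4 of 4 pairs. It had 1779, 1062, 879 and 1069 FPKM in TRF hearts, against 721, 982, 729.6 and 869 FPKM in ALF hearts, with a difference of 0.50 (SE 0.22). TRF at ZT00 stood far above the rest, and the groups overlapped. The heart factor tin, tinman, ranged over 1.34 to 5.12 FPKM in TRF hearts and 2.39 to 3.69 FPKM in ALF hearts. Mef2, which drives muscle genes, ranged over 10.8 to 16.1 FPKM in TRF hearts and 11.4 to 16.98 FPKM in ALF hearts. Both overlapped fully between the groups.

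Genes of ion channels and calcium handling lay mostly below 0, with 18 of 24 tested members below and a median of -0.16. Ca-P60A, the SERCA calcium pump, had 197, 179, 169.8 and 207 FPKM in TRF hearts, against 215, 217, 292 and 229 FPKM in ALF hearts. The highest TRF level was below the lowest ALF level, and the difference was -0.33 (SE 0.15). Ca-alpha1D, an L-type calcium channel, differed by -0.43 (SE 0.18) at 1.77 to 3.17 FPKM in TRF hearts and 3.11 to 4.12 FPKM in ALF hearts. Shal, a potassium channel, was the 1 member higher in 4 of 4 pairs. It had 10.4, 8.36, 7.29 and 7.33 FPKM in TRF hearts, against 7.56, 7.38, 5.78 and 5.76 FPKM in ALF hearts, with a difference of 0.29 (SE 0.09). Irk2, Calx and Atpalpha had their highest level in ALF at ZT00, one of the libraries with renal tubule transcripts. Irk2 had 0.728, 0.335, 8.22 and 2.349 FPKM in TRF hearts, against 74.6, 1.14, 10.9 and 0.687 FPKM in ALF hearts, and its difference of -1.38 (SE 1.06) became 0.15 in the pairs of ZT06 and ZT18. Calx differed by -0.86 (SE 0.36) and Atpalpha, the sodium pump, by -0.39 (SE 0.20). The part of tubule RNA in these values was not tested.

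Extracellular matrix genes had a median of -0.32, with 15 of 17 tested members below 0 (58.1% of all genes). Only 2 were lower in 4 of 4 pairs, a share near the 8.37% of all genes, and 0 had an unadjusted p under 0.05. Cg25C, a collagen IV chain, had 36.5, 59.1, 45.6 and 71.1 FPKM in TRF hearts, against 66.4, 78.02, 72.99 and 61.96 FPKM in ALF hearts. It was lower under TRF at ZT00, ZT06 and ZT12 and higher at ZT18, with a difference of -0.43 (SE 0.19). Tig, the matrix protein tiggrin, had 8.49, 6.81, 8.96 and 8.59 FPKM in TRF hearts, against 43.1, 10.4, 12.5 and 9.03 FPKM in ALF hearts. It differed by -0.82 (SE 0.37), and ALF at ZT00 held the highest level. In the pairs of ZT06 and ZT18 alone, the list's median was -0.07.

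Genes of the respiratory chain were lower under TRF by a small amount, except at ZT00. In complex I, 33 of 34 tested members lay below 0 and 13 were lower in 4 of 4 pairs. In complexes II to V, all 35 tested members lay below 0 and 14 were lower in 4 of 4 pairs. Both lists had a median of -0.18. No member passed after adjustment, and 6 and 5 members were lower at an unadjusted p under 0.05 (2.88% of all genes). The ZT00 pair stood apart, with medians of 0.07 and 0.02, and the medians of the other pairs lay between -0.21 and -0.28. Members of one complex are not independent of each other.

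CG10320, a subunit of complex I, had 219, 173, 267 and 246 FPKM in TRF hearts, against 288, 261, 361 and 302 FPKM in ALF hearts. The groups overlapped only through ALF at ZT06 against TRF at ZT12, and the difference was -0.43 (SE 0.10). CG3621 and CG12400, further complex I subunits, differed by -0.32 (SE 0.10) and -0.29 (SE 0.11). Cyt-c-p, the cytochrome c of somatic cells, had 398, 354, 528 and 533 FPKM in TRF hearts, against 572, 544, 687 and 525 FPKM in ALF hearts. It was nearly equal at ZT18 and lower under TRF at the other times, by -0.37 (SE 0.14). CoVIII of cytochrome c oxidase had 253 to 461 FPKM in TRF hearts and 365 to 557 FPKM in ALF hearts and a difference of -0.33 (SE 0.10). ATPsyn-beta, the catalytic subunit of ATP synthase, had 1449, 914, 1029 and 1083 FPKM in TRF hearts, against 1193, 1191, 1165 and 1224 FPKM in ALF hearts. It was higher under TRF at ZT00 and lower in the other pairs, and its difference of -0.11 (SE 0.14) was smaller than its SE.

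Mitochondrial ribosomal protein genes resembled them, with 65 of 73 below 0, 25 lower in 4 of 4 pairs, 0 higher in 4 of 4 and a median of -0.18. At an unadjusted p under 0.05 there were 13 lower members (2.88% of all genes). mRpL23 had 12.96, 16.3, 21.9 and 22.4 FPKM in TRF hearts, against 17.7, 22.8, 32.9 and 28.5 FPKM in ALF hearts. Levels climbed from ZT00 to ZT12 in both groups, and the TRF level was lower each time, by -0.45 (SE 0.09). mRpL34 differed by -0.44 (SE 0.12), mRpL41 by -0.41 (SE 0.09) and mRpL12 by -0.40 (SE 0.10). Roe1, a mitochondrial co-chaperone, had 13.3, 18.2, 17.3 and 22.1 FPKM in TRF hearts, against 19.4, 24.97, 22.3 and 29.1 FPKM in ALF hearts and a difference of -0.42 (SE 0.09). CG7441, the mitochondrial tryptophanyl-tRNA synthetase TrpRS-m in RefSeq, differed by -0.47 (SE 0.10). Cytosolic ribosomal proteins did not share this lean, with 62 of 88 above 0, 2 higher and 5 lower in 4 of 4 pairs and a median of 0.03.

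**Figure D4:**
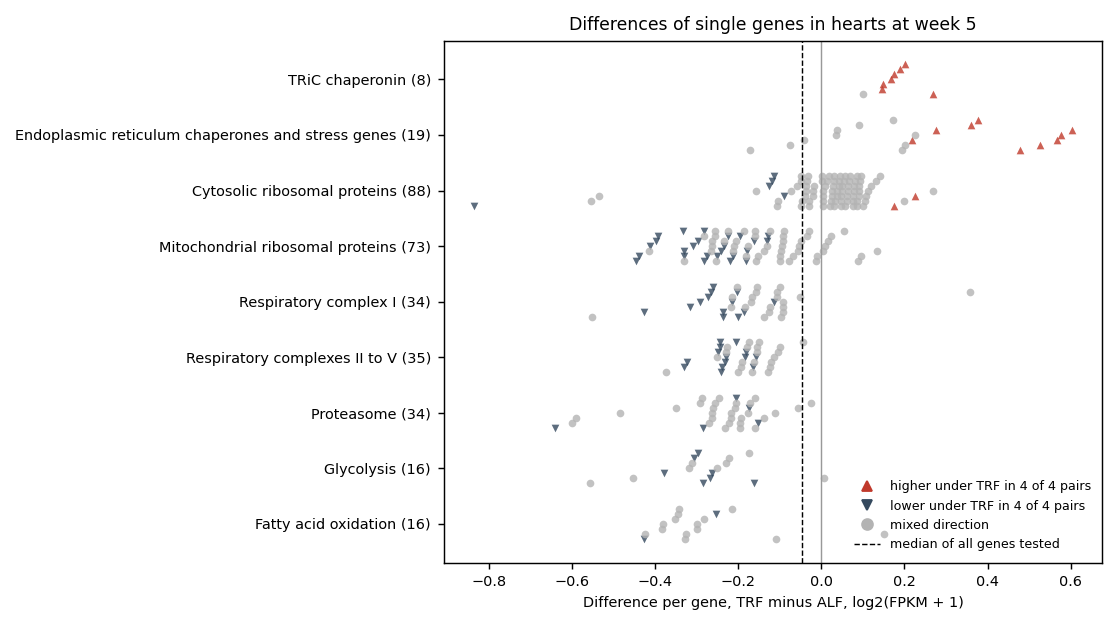
Difference (TRF minus ALF, log2(FPKM + 1)) of each tested gene in 9 lists, with the number tested in brackets, red triangles for genes higher and dark triangles for genes lower in 4 of 4 pairs, and a dashed line at the median of all genes tested (-0.05). All 8 TRiC genes lay right of 0, and all 35 genes of complexes II to V lay left of it.

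Fuel genes lay below 0 as well. Fatty acid oxidation genes had 15 of 16 members below 0 and a median of -0.33, yet only 2 were lower in 4 of 4 pairs because the ZT12 pair leaned the other way (-0.39, -0.59, 0.10 and -0.34 by pair). The dehydrogenase gene scu had 144, 146, 312 and 279 FPKM in TRF hearts, against 212, 235, 339 and 356 FPKM in ALF hearts. Levels at ZT12 and ZT18 were higher than at ZT00 and ZT06 in both groups, and the difference was -0.43 (SE 0.13). CG12262, an acyl-CoA dehydrogenase gene, differed by -0.42 (SE 0.17). Glycolysis genes had 15 of 16 members below 0, 7 lower in 4 of 4 pairs and a median of -0.28. ImpL3, lactate dehydrogenase, had 65.1, 38.1, 35.7 and 42.4 FPKM in TRF hearts, against 69.1, 51.2, 47.4 and 65.4 FPKM in ALF hearts. Its ZT00 levels were close, ZT18 was furthest apart, and the difference was -0.38 (SE 0.12). Gapdh1 was lower in 4 of 4 pairs, by -0.30 (SE 0.13). Gpo-1, a glycerol-3-phosphate oxidase, differed by -0.56 (SE 0.43), and ALF at ZT18 was below TRF at that time.

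Genes of glycogen and trehalose were all below 0 (8 of 8, median -0.35), though none was lower in 4 of 4 pairs. The ZT06 pair had the largest gap, with a median of -0.96, and the ZT12 pair was at 0.23. CG33138, the glycogen branching enzyme, had 41.2, 44.3, 109 and 109.7 FPKM in TRF hearts, against 69.2, 130.1, 114 and 106 FPKM in ALF hearts, and differed by -0.57 (SE 0.29). Levels at ZT12 and ZT18 were alike in both groups. UGP, which makes UDP-glucose, differed by -0.50 (SE 0.26). Lipid storage and synthesis genes had 9 of 13 below 0 and a median of -0.09, and lipoprotein genes had 4 of 7 below 0. Brummer, bmm, the main triglyceride lipase, had 271, 257, 171 and 115 FPKM in TRF hearts, against 199, 175, 165 and 195 FPKM in ALF hearts. It was higher under TRF at ZT00, ZT06 and ZT12 and lower at ZT18, and the groups overlapped. NLaz, a lipocalin, was higher in 4 of 4 pairs, by 0.43 (SE 0.12).

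Genes of insulin signalling and the fasting response had 10 of 18 above 0 and a median of 0.04. The glucose-regulated factor sug, sugarbabe, had 34.4, 41.4, 120.0 and 141 FPKM in TRF hearts, against 66.8, 84.4, 118 and 126 FPKM in ALF hearts. It was lower under TRF at ZT00 and ZT06 and slightly higher at ZT12 and ZT18, with a difference of -0.44 (SE 0.25). Autophagy genes had 11 of 13 above 0 and a median of 0.07. Atg1, the kinase that starts autophagy, had 16.1, 14.6, 9.28 and 12.7 FPKM in TRF hearts, against 12.9, 10.4, 5.76 and 10.7 FPKM in ALF hearts and was higher in 4 of 4 pairs, by 0.40 (SE 0.10); it overlaps CG42709 on the opposite strand.

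The TRiC chaperonin was the most even list. All 8 subunit genes lay above 0 (41.9% of all genes), and 7 were higher in 4 of 4 pairs (7.83% of all genes). For 5, every TRF library lay above every ALF library, as for 1.66% of all genes. The median difference was 0.17, and it was 0.21, 0.16, 0.19 and 0.18 in the pairs of ZT00, ZT06, ZT12 and ZT18. Summed levels were 444, 423, 453 and 427 FPKM in TRF hearts, against 386, 379, 403 and 378 FPKM in ALF hearts. T-cp1 had 33.5, 31.1, 31.5 and 31.99 FPKM in TRF hearts, against 28.7, 27.8, 27.5 and 26.8 FPKM in ALF hearts, with every TRF library above every ALF library and a difference of 0.20 (SE 0.09). CG8258 had 64.5, 57.8, 64.7 and 54.1 FPKM in TRF hearts, against 50.7, 44.2, 53.3 and 51.3 FPKM in ALF hearts. Its groups did not overlap, the ZT18 pair was closest, and the difference was 0.27 (SE 0.10). CG8258 was the 1 TRiC gene with an unadjusted p under 0.05 (3.62% of all genes were higher at that threshold). The differences of CG5525, Cctgamma, Cct5, Tcp-1zeta and Tcp-1eta were 0.19, 0.17, 0.17, 0.15 and 0.15, all higher in 4 of 4 pairs. CG7033 differed by 0.10 (SE 0.10), with the ZT12 pair lower under TRF.

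Chaperones and stress genes of the endoplasmic reticulum formed a list added after values were seen. Of 19 members, 16 lay above 0 (41.9% of all genes), and the median was 0.22. Members higher in 4 of 4 pairs numbered 9 (7.83% of all genes), and 4 were higher without overlap (1.66% of all genes). Gp93, the Hsp90 of this compartment, had 259, 259, 192 and 163 FPKM in TRF hearts, against 144, 149.6, 128 and 141 FPKM in ALF hearts. No ALF library reached a TRF library, ZT18 was closest, and the difference was 0.60 (SE 0.14). Hsc70-3, known as BiP, had 243, 388, 233 and 203 FPKM in TRF hearts, against 169, 171, 168 and 189 FPKM in ALF hearts. ALF levels were nearly flat, TRF at ZT06 was highest, and the difference was 0.57 (SE 0.19). Manf, a secreted stress factor, had 141, 207, 146 and 149.9 FPKM in TRF hearts, against 94.3, 132, 114 and 104 FPKM in ALF hearts, also without overlap, and a difference of 0.53 (SE 0.10). CaBP1, a disulfide isomerase, differed by 0.58 (SE 0.14), and the oxidase Ero1L by 0.48 (SE 0.12). Xbp1, the transcription factor of the unfolded protein response, had 640.4, 576, 473 and 419 FPKM in TRF hearts, against 480.1, 460.0, 353 and 344 FPKM in ALF hearts. It was higher in 4 of 4 pairs, by 0.36 (SE 0.09), while the groups overlapped.

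Heat shock genes were higher under TRF except at ZT00. Of 19 tested members 17 lay above 0, with a median of 0.28, but only 3 were higher in 4 of 4 pairs. The median by pair was -0.19, 0.76, 0.41 and 0.20. Hsp23, a small heat shock protein, had 116, 207, 438 and 339.6 FPKM in TRF hearts, against 202, 91.4, 216 and 196 FPKM in ALF hearts. ALF at ZT06 was lowest, TRF at ZT00 came next, and the difference was 0.54 (SE 0.35). Hsp67Bc differed by 0.57 (SE 0.19). The inducible Hsp70 genes are near-identical copies in pairs, and Hsp70Bb and Hsp70Bbb carried the same values, 10.03 to 21.6 FPKM in TRF hearts and 8.49 to 17.5 FPKM in ALF hearts. Proteasome genes all lay below 0 (34 of 34, median -0.22), yet 5 were lower in 4 of 4 pairs. The median by pair was -0.26, 0.03, -0.61 and -0.02, with all 34 members lower at ZT12 and 31 at ZT00, against 14 at ZT06 and 22 at ZT18. These counts include low members that were highest in ALF at ZT18, as testis genes were. Prosbeta4R2 had 1.54, 2.12, 1.47 and 3.30 FPKM in TRF hearts, against 1.05, 0.672, 3.23 and 11.1 FPKM in ALF hearts. The part of testis RNA in the counts was not tested. Proteasome sums were 2005, 3242, 3842 and 4900 FPKM in TRF hearts, against 2437, 3109, 5881 and 5000 FPKM in ALF hearts. They were lowest in TRF at ZT00 and highest in ALF at ZT12, the libraries that were also lowest and highest for Cyp4g1; the part of oenocyte RNA was not tested.

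Clock genes had no common direction. Of 8 members 4 lay above 0 and 4 below, none had the same direction in 4 of 4 pairs, and the median was 0.01. The gene tim, timeless, had 42.7, 18.6, 76.2 and 162 FPKM in TRF hearts, against 24.4, 15.9, 92.5 and 155 FPKM in ALF hearts. Its highest level was at ZT18 and its lowest at ZT06 in both groups, and per was likewise highest at ZT18 and lowest at ZT06. Clk, which drives tim and per, had 3.79, 8.35, 2.87 and 1.72 FPKM in TRF hearts, against 10.6, 10.3, 2.55 and 2.26 FPKM in ALF hearts. Both groups were high at ZT06, and at ZT00 the TRF level was well below the ALF level. The time of the highest level differed between the groups for other members: Pdp1 was highest at ZT18 under TRF (178 FPKM) and at ZT12 under ALF (172 FPKM), vri at ZT18 under TRF and ZT12 under ALF, and cry at ZT12 under TRF and ZT06 under ALF. With 1 library per time, rhythms were not tested.

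Detoxification genes had medians near 0. Of 72 tested cytochrome P450 genes 36 lay above 0 (41.9% of all genes) and 36 below, with a median of 0.00. Cyp28a5 had 115, 87.8, 45.1 and 47.2 FPKM in TRF hearts, against 48.8, 51.8, 32.5 and 37.7 FPKM in ALF hearts, higher in 4 of 4 pairs, by 0.69 (SE 0.17). Glutathione transferase genes had 19 of 30 above 0 and a median of 0.06, and GstD1 had 1294, 1140.5, 1474 and 1135 FPKM in TRF hearts, against 1015, 969.8, 1101 and 1104 FPKM in ALF hearts, without overlap and with a difference of 0.26 (SE 0.10). Antioxidant enzymes had 6 of 12 above 0, and 4 were lower in 4 of 4 pairs. The juvenile hormone enzyme gene jhamt had 7.78, 1.84, 2.697 and 1.32 FPKM in TRF hearts, against 11.6, 2.13, 12.5 and 2.73 FPKM in ALF hearts and a difference of -0.80 (SE 0.30), and times differed more than feeding groups. Of 5 activity-regulated genes, puc, the phosphatase that restrains JNK, had 66.4, 33.9, 53.99 and 42.7 FPKM in TRF hearts, against 48.7, 24.4, 27.3 and 33.7 FPKM in ALF hearts. It was higher in 4 of 4 pairs, by 0.55 (SE 0.14), and Jra, the fly Jun, by 0.41 (SE 0.14). Turandot stress peptides summed to 136, 133, 947 and 1974 FPKM in TRF hearts, against 238, 271, 3742 and 291 FPKM in ALF hearts. ALF at ZT12 was highest, TRF at ZT18 and TRF at ZT12 came next, and the other 5 libraries were lower.

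Photoreceptor genes, which mark eye tissue, were lower under TRF in the hearts. All 10 tested members lay below 0 (58.1% of all genes), 7 were lower in 4 of 4 pairs (8.37% of all genes), and the median was -0.58. At an unadjusted p under 0.05, 7 were lower (2.88% of all genes). ninaE, the main rhodopsin, had 56.01, 20.8, 41.5 and 47.2 FPKM in TRF hearts, against 86.3, 50.3, 61.1 and 57.9 FPKM in ALF hearts. TRF at ZT06 was lowest and ALF at ZT00 highest, the groups overlapped slightly, and the difference was -0.67 (SE 0.17). Arr1, the arrestin that quenches rhodopsin, had 8.99, 3.14, 6.07 and 6.73 FPKM in TRF hearts, against 15.3, 7.88, 10.5 and 8.52 FPKM in ALF hearts and a difference of -0.70 (SE 0.15). Tracheal genes were low, at 5.45 to 10.2 FPKM in TRF hearts and 10.3 to 14.5 FPKM in ALF hearts in sum, and all 4 tested members lay below 0; Gasp differed by -0.76 (SE 0.35). Pericardial nephrocyte genes all lay above 0 (7 of 7, median 0.45). CG11592 had 488, 361, 405 and 429.7 FPKM in TRF hearts, against 229.9, 405, 224 and 291 FPKM in ALF hearts. The ZT06 pair ran against the others, and the difference was 0.58 (SE 0.22). Mec2 differed by 0.57 (SE 0.19) and sns, a slit diaphragm protein, by 0.45 (SE 0.23). These shifts accompany the muscle, mitochondrial and immune values over the same libraries, and their part in them was not tested.

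**Figure D5:**
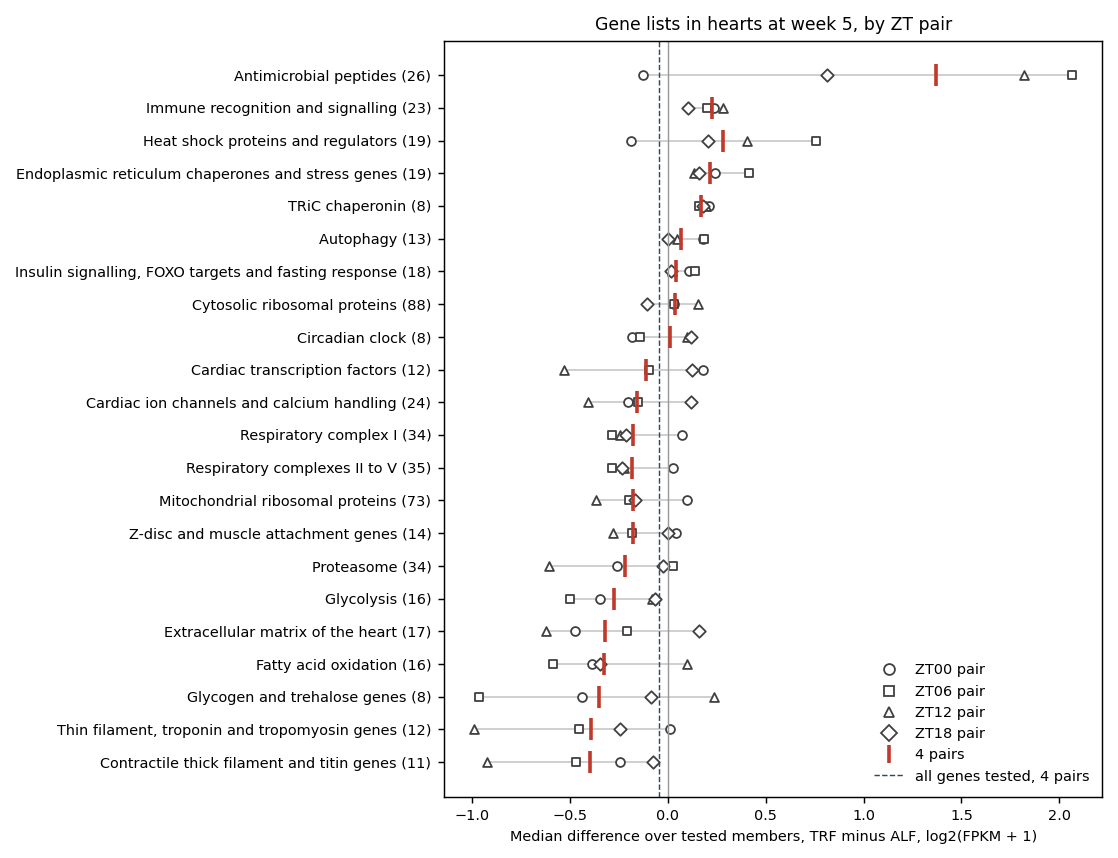
Median difference over the tested members of 22 lists (TRF minus ALF, log2(FPKM + 1)), with open symbols for the 4 ZT pairs, a red bar for the 4 pairs together, the number tested in brackets and a dashed line at the median of all genes. Antimicrobial peptides (1.37) lay furthest to the right, with the ZT00 pair at -0.12, and thick filament genes (-0.40) furthest to the left.

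The heart differences were set against those of the periphery at the same age and times. The interaction of tissue and feeding called 0 genes in limma (0.0%, smallest adjusted p = 0.918), and 448 genes (4.6%) had an unadjusted p under 0.05. The 5 genes with the smallest p were CG7768, CG44178, side, CG43278 and Skeletor, with heart minus periphery differences of -1.18, -1.03, -0.77, -0.67 and -0.91. In that order, they differed by -1.17, -0.74, -0.53, -0.58 and -0.19 in hearts and by 0.01, 0.29, 0.24, 0.09 and 0.72 in the periphery. The contrast of Skeletor thus came mostly from the periphery. CG7768 averaged 2.29 ± 1.42 FPKM under TRF and 6.74 ± 4.596 FPKM under ALF in hearts, and 144 ± 6.29 FPKM under TRF and 144 ± 7.65 FPKM under ALF in the periphery (SD, n = 4 each).

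List medians in hearts and in the periphery lay apart for several groups. Antimicrobial peptides had a median of 1.37 in hearts and 0.16 in the periphery, thick filament genes -0.40 in hearts and 0.02 in the periphery, and photoreceptor genes -0.58 in hearts and 0.01 in the periphery. Photoreceptor transcripts were scarce in the periphery, with ninaE at 0 to 0.212 FPKM under TRF and 0 to 0.254 FPKM under ALF. Their median near 0 there therefore says little about feeding. Fatty acid oxidation genes were alike, at -0.33 in hearts and -0.30 in the periphery. For Prm, the heart minus periphery difference was -0.80 (SE 0.21), for Gp93 it was 0.77 (SE 0.22), and for CecA1 it was 1.62 (SE 0.48). None passed after adjustment.

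Against heads, only ZT00, ZT12 and ZT18 were used, because the head libraries of ZT06 lacked photoreceptor transcripts. Photoreceptor genes summed to 7.39 FPKM in TRF and 12.5 FPKM in ALF at ZT06, against 35760 to 40970 FPKM in TRF heads and 37550 to 38250 FPKM in ALF heads at the other 3 times. In the periphery the same sums were 7.97 to 9.005 FPKM under TRF and 7.57 to 9.05 FPKM under ALF. The interaction called 0 genes in limma (0.0%, smallest adjusted p = 0.826), and 497 genes (5.1%) had an unadjusted p under 0.05. The genes with the smallest p were snmRNA:157, CG30289, CG10814, CG42255 and CG30460, at 2.56, 1.72, -1.77, 0.87 and -0.68. In that order, they differed by 0.94, 0.80, -0.02, 0.85 and -0.55 in hearts and by -1.61, -0.91, 1.75, -0.03 and 0.13 in heads. The contrast of CG10814 thus came from heads, and CG42255 averaged only 0.086 FPKM in TRF heads and 0.108 FPKM in ALF heads. Over these 3 times, antimicrobial peptides had a median of 0.95 in hearts and 0.82 in heads. DptB differed by 1.70 in hearts and 1.55 in heads, with a heart minus head difference of 0.14 (SE 0.50). Thick filament genes had a median of -0.39 in hearts and 0.03 in heads, and the heart minus head difference of Prm was -0.76 (SE 0.25).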

How the data were processed

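FPKM values per transcript were used as deposited by the authors, in 1 table of 29260 transcripts for all 72 libraries. STAR 2.2.0c, HOMER, CASAVA 1.8.2 and the build dm3 are named, without roles, per the submitters' processing notes. The low FPKM values in each heart library were whole multiples of 1 read (100.0% of values, within 0.03 reads), which gave read totals of 7.78 to 23.7 M (mega-reads), which are recovered reads.

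For each gene the transcript with the highest mean over the 8 hearts was kept, and those that averaged 1 FPKM or more were tested (9742 genes). limma 3.58.1 in R 4.3.3, with a trend in the prior variance, was fitted to log2(FPKM + 1) with ZT as a block and Benjamini-Hochberg adjustment at 0.05, which left 3 residual degrees of freedom. The fit was also run on simulated data, with changes larger than most differences given here, so that run cannot speak for changes of their size. The 42 gene lists, the members named and the tests were chosen with earlier results of these data known, and a list of endoplasmic reticulum genes was added after the values were seen. Lists are described by counts and medians, with no set test.

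Genes named in the text were the 12 higher and 12 lower with the smallest unadjusted p and 1 direction in 4 of 4 pairs, and from each list up to 5 members with the widest difference and the best-known member; any clock, cardiac transcription factor, TRiC or antimicrobial peptide gene could also be named. Other names were chosen after their values were seen: CG18371, CG3088, mir-1003, pirk, key, PGRP-LF, Mlc-c, cpa, Ca-P60A, Shal, ATPsyn-beta, Gapdh1, Xbp1, GstD1, Lsp1alpha and Cyp4g1.

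Alternatives were pseudocounts of 0.1 and 5, no filter, a filter of 5 FPKM, quantile normalization, median-of-ratios scaling, no ZT block, robust empirical Bayes, the transcript chosen over all 72 libraries, each ZT left out, and limma-voom on recovered reads. Fits on the pairs of ZT06 and ZT18, and without the libraries with renal tubule transcripts, were chosen after seeing the data. Gene names of RefSeq Release 6 were matched by CG identifier, and coordinates are those of dm3 in the table. Other named genes also overlap neighbours. On the same strand, CG12262 shares 2123 bases with CG32373, CG11592 1681 with CG3625 and sns 1373 with CG30350. IM18 shares 860 with CG10332, PGRP-SD 721 with CG32373, edin 421 with Oatp74D and Mtk 268 with CG43729. Opposite-strand overlaps include Tcp-1eta (2332 with CG9839) and PGRP-LF (623 with UGP). The part of neighbours in the values was not tested. Mature sequences, promoters and proteins were not used here.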

Additional observations from a re-analysis of the deposited data

Results flagged for a closer look

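In groups of 4 libraries, a value was marked when its gap to the nearest other value took up most of the group's range (Dixon's criterion at 95%). Chance marks about 1 in 20 groups, and 14 of 316 groups were marked here.

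Among immune genes, TRF at ZT18 was far below the other TRF hearts for AttB (318.6 FPKM) and CecA1 (134.5 FPKM), and TRF at ZT06 was far above them for Drs (996.9 FPKM) and Mtk (3699 FPKM). Among chaperone genes, TRF at ZT06 was highest for Manf (207.3 FPKM). ALF at ZT18 was highest for Hsc70-3 (188.5 FPKM), and ALF at ZT06 was lowest for Hsp23 (91.44 FPKM). Among muscle genes, ALF at ZT12 was highest for Mlp60A (655.7 FPKM).

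Summed levels of whole lists were marked in 6 groups. TRF at ZT00 was highest for ion channel and calcium handling genes (1063 FPKM), and TRF at ZT06 was highest for CPR cuticle protein genes (483.5 FPKM). ALF at ZT06 was lowest for heat shock genes (4665 FPKM). ALF at ZT12 was highest for Turandot peptides (3742 FPKM). ALF at ZT00 was highest for gut proteases (115.3 FPKM) and for renal tubule markers (177.8 FPKM).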

How the results depend on the processing

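No alternative called any gene, in hearts or in the interactions with periphery and head. The smallest adjusted p ran from 0.296 to 0.983 over the periphery interactions and from 0.782 to 0.991 over the head interactions. Libraries of the same ZT share a label but no stated animal or batch, and their deviations from the group means correlated at 0.0598, 0.0864, -0.0441 and 0.236 for ZT00, ZT06, ZT12 and ZT18, so the pairing rests on ZT alone. None of the 4 TRF libraries and 1 of the 4 ALF libraries (ZT18) correlated best with its own ZT. Without the ZT block, 0 genes were called, and 258 higher and 178 lower genes had an unadjusted p under 0.05, against 353 and 281 with it. Lower genes at that threshold ranged most, from 97 (ZT06 and ZT18 pairs) to 988 (no filter). Leaving out ZT12 gave 181 higher and 147 lower genes.

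The differences of 3 genes changed sign. Leaving out 1 ZT at a time gave -0.33 (without ZT06) to 1.14 for Drs and -0.25 to 0.049 (without ZT00) for IM4. Irk2 moved to 0.15 in the ZT06 and ZT18 pairs. Medians that moved past the spread between pairs were few. Without the libraries with renal tubule transcripts and with ZT not in the model, a choice made after seeing the data, the median became 0.044 for Z-disc genes, 0.12 for insulin and fasting genes, -0.51 for the proteasome, 0.31 for immune recognition, -0.16 for antioxidant enzymes and 0.35 for activity-regulated genes. Quantile normalization gave 0.13 for TRiC, and moved the median of all genes to 0.02. A filter of 5 FPKM gave 0.27 for activity-regulated genes. CPR cuticle proteins, at -0.34, became -0.14 with a pseudocount of 5, -0.16 with no filter, -0.17 under quantile normalization and -0.15 in the ZT06 and ZT18 pairs, the last also chosen after seeing the data. Leaving out 1 ZT at a time gave medians of 0.18 to 0.33 for immune recognition, 0.95 to 1.69 for antimicrobial peptides, 0.16 to 0.18 for TRiC, -0.46 to -0.22 for thick filament genes, -0.53 to -0.21 for thin filament genes, -0.26 to -0.13 for complex I and -0.27 to -0.14 for complexes II to V. The median changed sign with 1 ZT left out for cardiac transcription factors (-0.21 to 0.04), lipid storage genes (-0.21 to 0.07), Turandot peptides (-1.004 to 0.20), gut proteases (-0.17 to 0.57), accessory gland genes (-0.15 to 0.58) and testis genes (-0.64 to 0.16). Lists with a median near 0 did so too: cytosolic ribosomal proteins (-0.02 to 0.08), hemocyte genes (-0.18 to 0.02), clock genes (-0.07 to 0.10), lipoproteins (-0.03 to 0.11), cytochrome P450 genes (-0.09 to 0.06) and antioxidant enzymes (-0.06 to 0.00). The cause of these shifts was not tested.

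TRF at ZT00 was the shallowest library (7.78 M reads).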

Other observations

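Cuticle protein genes of the CPR family held bursts in single heart libraries. Cpr67Fb had 1.42, 332, 3.005 and 4.77 FPKM in TRF hearts, against 1.88, 1.21, 4.38 and 3.56 FPKM in ALF hearts, so that 1 TRF library at ZT06 carried nearly all of it. Cpr62Ba had 0.153, 0, 0 and 0.545 FPKM in TRF hearts, against 161, 0.652, 2.63 and 0.156 FPKM in ALF hearts, with ALF at ZT00 alone. Over the family, 14 of 19 tested members lay below 0 under TRF and 4 were lower in 4 of 4 pairs, with a median of -0.34.

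Genes of carbohydrate digestion summed to 755, 609, 447 and 369.5 FPKM in TRF hearts, against 483, 515, 295 and 457 FPKM in ALF hearts, higher under TRF at ZT00, ZT06 and ZT12 and lower at ZT18. Neuron genes were low in both groups, at 14.2 to 22.4 FPKM in TRF hearts and 14.4 to 19.8 FPKM in ALF hearts in sum. Accessory gland genes had 8 of 10 tested members above 0 and a median of 0.38, with sums of 72.7, 17.6, 264 and 33.7 FPKM in TRF hearts, against 58.3, 37.1, 84.5 and 45.7 FPKM in ALF hearts, so that TRF at ZT12 was highest. Testis genes had 13 of 13 below 0 and a median of -0.29, with sums of 105, 295, 189 and 203 FPKM in TRF hearts, against 93.8, 144, 246 and 798 FPKM in ALF hearts, so that ALF at ZT18 was highest. Both medians changed sign when 1 ZT was left out, to as far as -0.15 for accessory gland genes and 0.16 for testis genes.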
